A study of Mus musculus with 14 samples.

Results

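The mitochondrial genome of the mouse encodes 37 genes, and all 37 were present in the gene count tables as symbols that start with mt-. They were chosen by that symbol alone, out of 55291 genes in the tables. They comprise 2 rRNA genes, 22 tRNA genes and 13 protein-coding genes. Bulk RNA-Seq counts were available for 14 samples of esophagus from 9 wild type C57BL/6 mice without any transgene or treatment. Peeled epithelium came from 5 aged mice (O1, O2, O3, OF5 and OM8) and 4 young mice (Y1, Y3, YF5 and YM4). For 5 of these mice, O1, O2, O3, Y1 and Y3, the stroma was also sequenced, which gave 3 aged and 2 young stromal samples. The labels define young as at most 4 months and aged as at least 18 months, and state a sex for OM8, YF5 and YM4 alone.

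Mammalian mtDNA is a compact circle without introns, transcribed from both strands as long precursors. Excision of the tRNAs that stand between the other genes releases most rRNAs and mRNAs, after which each RNA is matured and degraded at its own rate. The 13 proteins are core subunits of oxidative phosphorylation: complex I (the Nd genes, NADH dehydrogenase), complex III (mt-Cytb, cytochrome b), complex IV (the Co genes, cytochrome c oxidase) and complex V (the Atp genes, ATP synthase). All other subunits, and all proteins that copy, transcribe and process mtDNA, come from nuclear genes. Skeletal muscle, which forms much of the wall of the mouse esophagus, is rich in mitochondria.

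Total counts were 8217516 to 21867101 per sample. OF5, OM8, YF5 and YM4, the 4 mice that gave epithelium only, had 8217516 to 9399448 total counts, and nuclear loci that resemble cytoplasmic rRNA took 70.8% to 80.9% of them. The same loci took 32.1% to 43.7% in the other 5 epithelial samples and 17.0% to 23.4% in stroma. For this reason most comparisons below are ratios within the mt- genes. The labelled layers were checked against marker genes, expressed as summed counts per 10000 nuclear protein-coding counts. The 10 keratinocyte markers summed to 557 to 1622 in epithelium and 1.53 to 15.5 in stroma. The 12 skeletal muscle markers summed to 5.18 to 43.6 in epithelium and 1449 to 2194 in stroma, so the stroma samples included muscle. All 10 keratinocyte markers were higher in epithelium and all 12 skeletal muscle markers lower by edgeR. Lor was at 0 in at least 1 sample, as were Tnnt3, Myh1, Myh2, Myh4 and Tnnc2. The 5 adipocyte markers (0 to 0.0925 in epithelium, 4.35 to 28.7 in stroma, each at 0 in at least 1 sample) and the 5 endothelial markers were also lower in epithelium. Of the smooth muscle, fibroblast and leukocyte markers, 2 of 5, 3 of 6 and 2 of 3 tested were lower. These markers moved with every layer result below, and their part in those results was not tested.

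Near-identical copies in nuclear DNA are annotated for 7 of the 13 coding genes, which bears on every count of those genes. A search for shared runs of 31 bases over the GENCODE M21 transcripts found 7 unprocessed pseudogenes, all on chromosome 1 between 24611535 and 24616197 (GRCm38), whose alignment to a coding mt- gene had at least 99% identical bases. Gm28661 matched mt-Co2 over 681 bases, Gm10925 matched mt-Atp6 over 678, Gm28437 matched mt-Co3 over 783, Gm28439 matched mt-Nd4 over 876 and Gm10222 matched mt-Nd4l over 294, each with 0 differing bases. The copy of mt-Nd3 (Gm28438) differed at 1 of 345 bases and the partial copy of mt-Co1 (Gm29216) at 1 of 483. No such copy was annotated for mt-Nd1, mt-Nd2, mt-Atp8, mt-Nd5, mt-Nd6 and mt-Cytb, although the last 43 bases of mt-Atp8 overlap mt-Atp6. The pseudogenes stand in the order of their genes on mtDNA. Only annotated transcripts were searched, so the stretches between the pseudogenes were not covered. On mtDNA, mt-Ts1, mt-Td, mt-Tk, mt-Atp8, mt-Tg and mt-Tr lie between genes with copies. Whether unannotated copies of them exist was not tested. Below, copy means an annotated one. The 60-base stretches below show how little separates gene and copy. Capitals mark the differing base, numbered from 1 at the 5′ end of the mt- gene, and the last pair has none.
mt-Nd3, MT:9459-9518, plus strand: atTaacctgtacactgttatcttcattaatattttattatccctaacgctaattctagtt
Gm28438, chr1:24613060-24613119, minus strand, T3C: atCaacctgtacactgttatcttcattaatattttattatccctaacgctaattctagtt
mt-Co1, MT:6390-6449, plus strand: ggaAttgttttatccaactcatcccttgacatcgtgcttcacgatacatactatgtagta
Gm29216, chr1:24616129-24616188, minus strand, A1066T: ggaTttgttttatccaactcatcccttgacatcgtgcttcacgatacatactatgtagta
mt-Atp6, MT:7927-7986, plus strand: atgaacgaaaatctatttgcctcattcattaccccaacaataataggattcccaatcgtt
Gm10925, chr1:24614592-24614651, minus strand: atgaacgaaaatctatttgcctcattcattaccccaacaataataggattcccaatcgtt

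The copies received many counts. Over all samples Gm10925 held 293731 counts and mt-Atp6 held 265198. Gm10925 took 46.2% to 53.2% of the counts of that pair in stroma. In epithelium its share was 62.3% to 68.0% in the 5 mice sequenced for both layers and 48.1% to 56.6% in the other 4. Gm28437 took 34.2% to 60.4% of its pair with mt-Co3 in epithelium and 30.9% to 41.0% in stroma. Reads from identical stretches cannot be told apart, so counts of mt-Atp6, mt-Co1, mt-Co2, mt-Co3, mt-Nd3, mt-Nd4 and mt-Nd4l are uncertain. Their shares among the coding genes are given below also with the counts of the copy added, an alternative chosen after the counts had been seen. Their levels against all other genes are given as deposited only. Counts of mt-Ts1, mt-Td, mt-Tk, mt-Atp8, mt-Tg and mt-Tr may be uncertain too, since unannotated copies were not searched for.

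**Figure D1:**
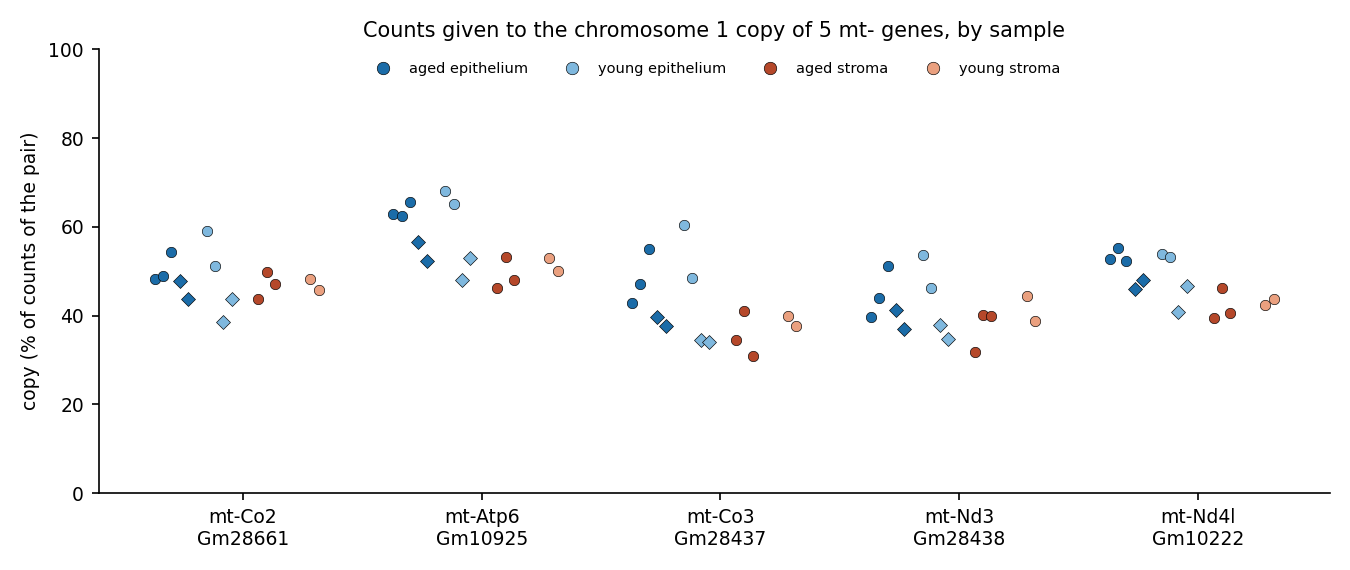
Share of the counts of each pair that went to the chromosome 1 copy (y axis, percent), for 5 mt- genes whose copies span almost the whole gene. Each point is 1 sample, diamonds are OF5, OM8, YF5 and YM4, and colours give the group. For mt-Atp6 the 5 epithelial circles lie at 62.3% to 68.0%, above all stromal points at 46.2% to 53.2%.

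Mitochondrial RNA took a far larger share of the counts in stroma than in epithelium. The mt- genes made up 4.22%, 3.69%, 3.17%, 5.28% and 6.24% of all counts in aged epithelium (O1, O2, O3, OF5 and OM8). In young epithelium they made up 2.67%, 4.89%, 2.09% and 1.53% (Y1, Y3, YF5 and YM4). In stroma the shares were 26.1%, 17.8% and 15.5% in aged mice (O1, O2 and O3) and 27.9% and 22.5% in young mice (Y1 and Y3). The layers did not overlap. The mean was 3.75% ± 1.55 (SD, n = 9) in epithelium and 21.9% ± 5.28 (SD, n = 5) in stroma, a difference of 18.2 percentage points (two-sided exact permutation test, p = 0.000999, the smallest that 2002 arrangements can give).

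The same held for the coding mt- genes alone when set against nuclear mRNA. Per 100 counts of nuclear protein-coding genes, the 13 coding mt- genes had 0.729, 0.677 and 0.663 counts in the epithelium of O1, O2 and O3 and 0.576 and 1.05 in that of Y1 and Y3. Epithelium from OF5, OM8, YF5 and YM4 had 3.36, 3.26, 2.04 and 1.17. Stroma had 11.5, 6.48 and 6.12 in O1, O2 and O3 and 11.7 and 8.004 in Y1 and Y3. Every epithelial sample lay below every stromal sample, and the mean difference on the log2 scale was -2.81, which is 7.01-fold (exact permutation p = 0.000999, the smallest possible). Within the 5 mice sequenced for both layers it was -3.54, or 11.6-fold. The 4 epithelial samples from mice without stroma lay above the other 5, beside their high share of rRNA-like counts, whose part was not tested. In bulk tissue, a smaller number of mitochondria-rich cells and less mitochondrial RNA per cell cannot be told apart.

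**Figure D2:**
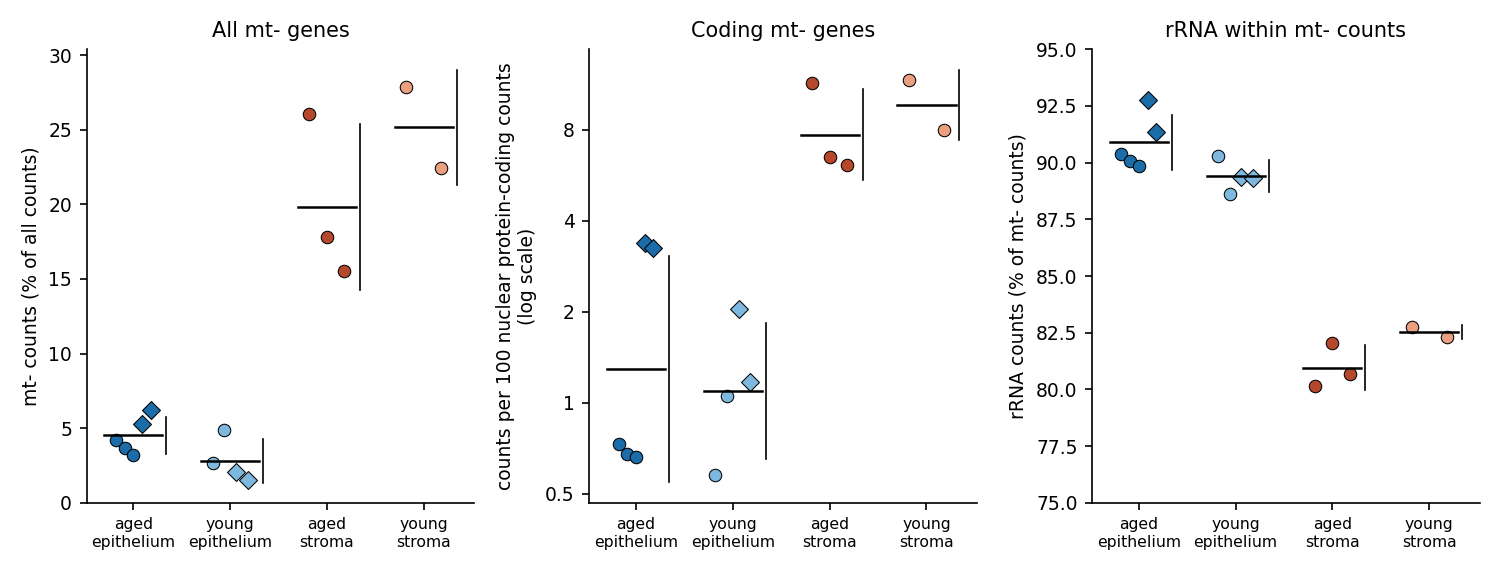
Mitochondrial counts by group. Left: mt- counts as a percent of all counts. Middle: coding mt- counts per 100 nuclear protein-coding counts, log scale. Right: rRNA as a percent of mt- counts, on an axis that does not start at 0. Points are samples, diamonds are OF5, OM8, YF5 and YM4, horizontal lines are group means (geometric in the middle) and vertical lines span 1 SD on each side. In each panel all epithelial points lie on one side of all stromal points.

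The rRNAs dominated mt- counts in both layers, and more so in epithelium. mt-Rnr1 and mt-Rnr2 encode the 12S and 16S rRNAs of the mitochondrial ribosome. Together they made up 90.4%, 90.1%, 89.9%, 92.8% and 91.4% of mt- counts in aged epithelium (O1, O2, O3, OF5 and OM8) and 90.3%, 88.6%, 89.4% and 89.3% in young epithelium (Y1, Y3, YF5 and YM4). In stroma they made up 80.1%, 82.1% and 80.7% in O1, O2 and O3 and 82.7% and 82.3% in Y1 and Y3. The difference of 8.65 percentage points was larger than the spread within either layer, whose SD was 1.23 in epithelium and 1.12 in stroma (exact permutation p = 0.000999, the smallest possible). The 4 epithelial samples with over 70% nuclear rRNA-like counts were at 89.3% to 92.8% and the other 5 at 88.6% to 90.4%. OF5 and OM8 lay above all of these 5. The nuclear rRNA-like share did not overlap between layers either, at 32.1% to 80.9% in epithelium and 17.0% to 23.4% in stroma. Its part in the rRNA share of mt- counts was not tested. Against the 5 coding genes that lack a near-identical copy and do not overlap a copied gene (mt-Nd1, mt-Nd2, mt-Nd5, mt-Nd6 and mt-Cytb), rRNA counts were 17.0 to 32.5 per coding count in epithelium and 9.25 to 10.9 in stroma. The libraries were selected with oligo-d(T) beads, and the share of rRNA that each retained in that step was not measured apart from these counts. The differences in mt- share, coding level and rRNA share had the same direction in 5 of 5 mice with both layers, for which an exact sign-flip test of the within-mouse differences gave p = 0.0625, the smallest it can give.

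The balance between both rRNAs also shifted slightly. Both are cut from the same precursor in mammals. The log2 ratio of mt-Rnr2 to mt-Rnr1 counts was 0.62 ± 0.13 (SD, n = 9) in epithelium and 0.82 ± 0.09 (SD, n = 5) in stroma, and the ranges overlapped (exact permutation p = 0.00699). In the 5 mice with both layers the difference was -0.13 with p = 0.0556 by the exact permutation test, so this result rests partly on the 4 mice without stroma.

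Among coding genes, mt-Co1 took the largest share of counts in every sample, at 25.5% to 31.8% in epithelium and 25.8% to 27.6% in stroma. mt-Cytb and mt-Nd5 followed, with medians of 14.3% and 13.6% in epithelium and 14.8% and 13.2% in stroma. With the copies added mt-Atp6 came before both, with a median of 16.8% in epithelium, against 10.9% for mt-Cytb and 10.2% for mt-Nd5, and of 13.1% in stroma, against 11.99% and 10.97%. Counted as deposited, mt-Nd3 took the smallest, at 0.308% to 0.619% over both layers. Levels can be compared between genes only per length. After division by gene length, mt-Atp8, of 204 bases, went from a median of 1.62% of coding counts to 7.72% of the length-scaled coding counts in epithelium. mt-Nd3, of 348 bases, was lowest also on this scale, with a median of 1.18%. mt-Nd6, the only coding gene transcribed from the other strand, had a median of 6.82% of length-scaled counts in epithelium and 5.86% in stroma. How strand was handled in counting is not given, so counts of mt-Nd6 here and below may include reads from the opposite strand.

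The share of each coding gene was compared between layers as its log2 count relative to the mean of all 13, which cancels the overall difference in level. Within a sample these log ratios must balance, so genes that are lower move the others up. The calls therefore depend on one another and concern relative levels only. Of 13 genes tested, 7 differed at an unadjusted exact permutation p under 0.05, and 4 of these did not overlap between layers. mt-Nd2, mt-Nd4l and mt-Nd4 of complex I were lower in epithelium. mt-Nd2 took 4.03%, 3.78%, 4.62%, 3.29% and 3.37% of coding counts in aged epithelium (O1, O2, O3, OF5 and OM8) and 4.55%, 5.08%, 3.84% and 3.36% in young epithelium (Y1, Y3, YF5 and YM4). It took 6.04%, 6.28% and 5.53% in the stroma of O1, O2 and O3 and 6.20% and 5.94% in that of Y1 and Y3. All epithelial values lay below all stromal values, with a relative level of 0.67 in epithelium (log2 difference -0.58, exact permutation p = 0.000999).

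mt-Nd4l and mt-Nd4, which are adjacent on mtDNA, overlap by 7 bases and lie on one bicistronic mRNA, shifted in the same direction. mt-Nd4l took 1.06% to 1.49% of coding counts in epithelium, with a median of 1.17%, and 1.81% to 2.10% in stroma. mt-Nd4 took 6.58% to 8.17% in epithelium, with a median of 7.26%, and 9.10% to 10.2% in stroma. Neither overlapped between layers, and the log2 differences were -0.70 and -0.41 (exact permutation p = 0.000999 for each). Both were lower in epithelium in 5 of 5 mice with both layers. With the copies Gm10222 and Gm28439 added, the log2 differences were -0.57 and -0.41, and the direction and call were the same.

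mt-Atp8 shifted the other way. This small subunit of ATP synthase took 1.62%, 1.67%, 1.43%, 1.17% and 1.74% of coding counts in aged epithelium (O1, O2, O3, OF5 and OM8) and 1.99%, 2.35%, 1.16% and 1.25% in young epithelium (Y1, Y3, YF5 and YM4). It took 1.02%, 0.807% and 1.04% in the stroma of O1, O2 and O3 and 0.839% and 1.08% in that of Y1 and Y3. The layers did not overlap, and its relative level was 1.66 times that in stroma (log2 difference 0.73, exact permutation p = 0.000999). No copy of mt-Atp8 was annotated, so none was added to its counts. With the copies of other genes added its log2 difference was 0.66, since only the mean it was set against had changed. Whether an unannotated copy shares its reads was not tested. The partner of mt-Atp8 on the same bicistronic mRNA, mt-Atp6, had a log2 difference of 0.19 (p = 0.125 by the exact permutation test). With the copy Gm10925 added this was 0.43 (p = 0.00799 by the same exact test).

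Relative to the mean coding gene, mt-Co2, mt-Co3 and mt-Nd6 were higher in epithelium by smaller amounts, with layers that overlapped. The log2 difference was 0.31 for mt-Co2, 0.29 for mt-Co3 and 0.25 for mt-Nd6 (exact permutation p = 0.003, 0.003 and 0.017). The copies of mt-Co2 and mt-Co3 moved these to 0.28 and 0.42. mt-Nd6 lost its call without O1 or without O2 (p = 0.0525 in each by the exact test). mt-Nd1, mt-Co1, mt-Nd3, mt-Nd5 and mt-Cytb had log2 differences of 0.09, 0.10, -0.29, 0.05 and -0.03 and did not pass over all samples. With the copies added these were 0.01, 0.07, -0.27, -0.03 and -0.10, of which that of mt-Cytb passed (exact permutation p = 0.016). Since mt-Cytb has no such copy, only the mean it was set against had changed. In the 5 mice with both layers mt-Nd1 passed at 0.19 and was higher in epithelium in 5 of 5 (exact permutation p = 0.0159). Restricted to the 5 coding genes that lack a copy and an overlap with one, mt-Nd2 remained lower (-0.53) and mt-Nd6 higher (0.30), and mt-Nd1 passed as higher (0.13, exact permutation p = 0.00899). These values are relative to the mean of the same 5 genes, so lower mt-Nd2 by itself raises the others on this scale. The calls of mt-Nd1 and mt-Nd6 here are therefore not independent of that of mt-Nd2.

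**Figure D3:**
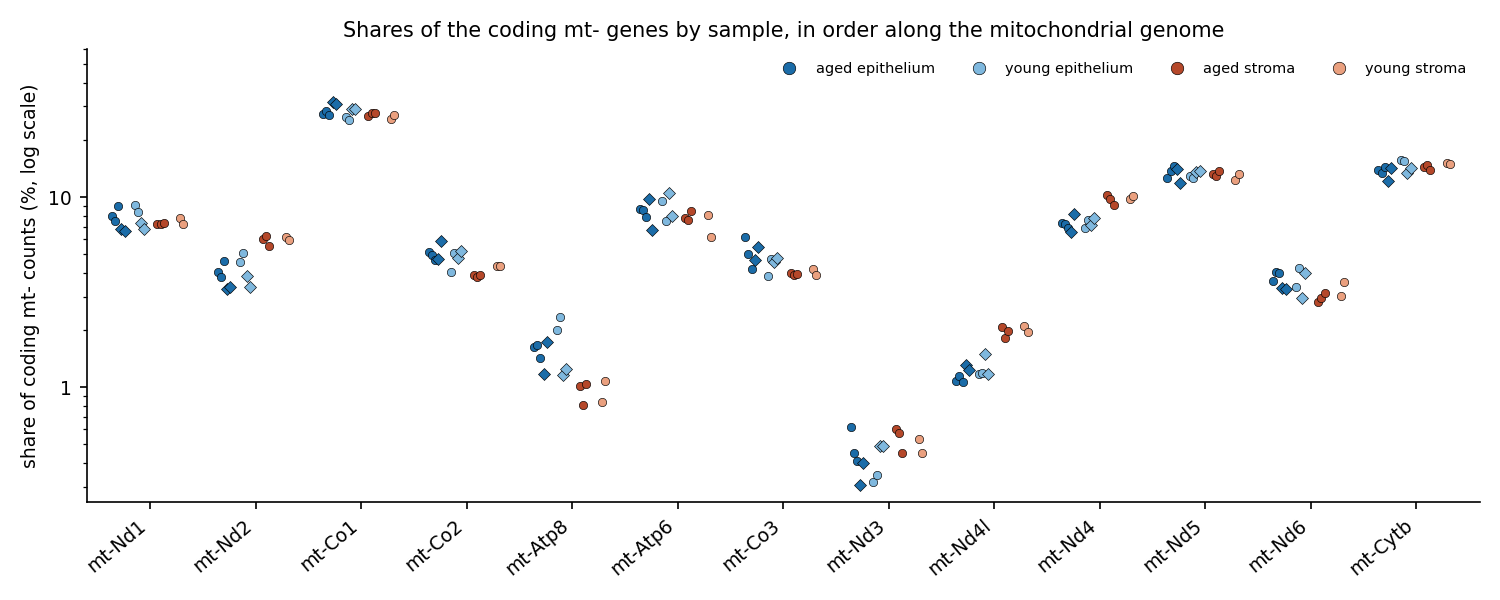
Share of each coding gene in the coding mt- counts of a sample (y axis, percent, log scale), in genome order. Points are samples, diamonds are OF5, OM8, YF5 and YM4. For mt-Nd2, mt-Nd4l and mt-Nd4 all stromal points lie above all epithelial points, and for mt-Atp8 all lie below.

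**Figure D4:**
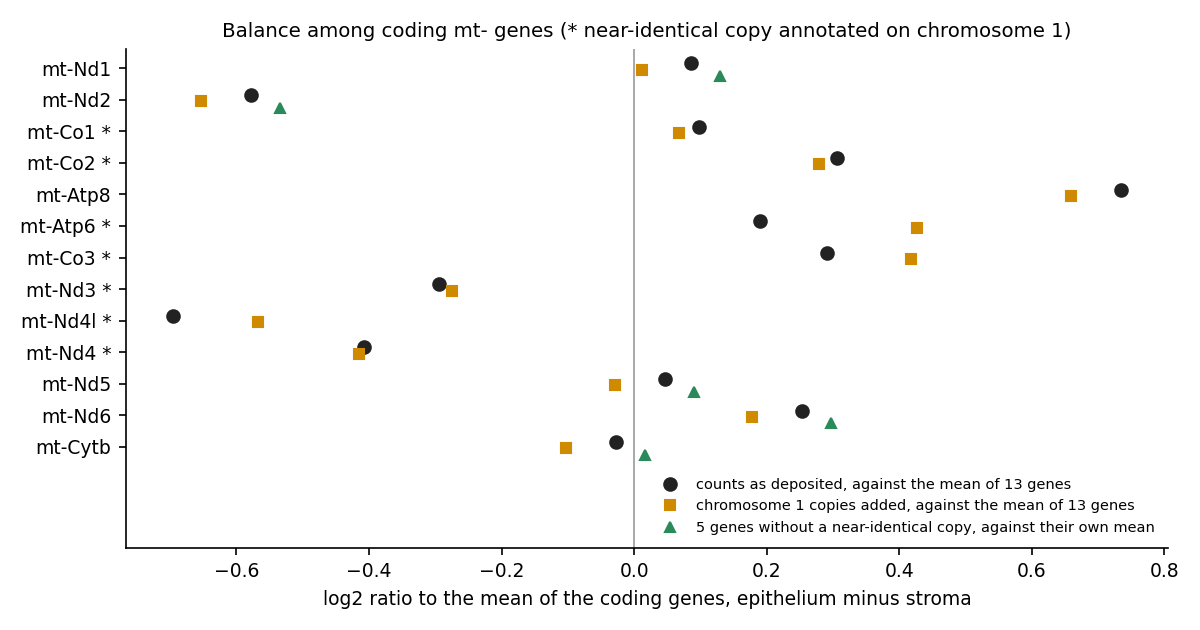
Difference between layers (x axis, epithelium minus stroma, log2) in the level of each coding gene relative to the mean coding gene, computed in 3 ways. mt-Nd2 stays between -0.65 and -0.53 in all 3, and mt-Nd4l and mt-Nd4 keep their direction with the copies added. For mt-Atp8 no copy was added to its own counts, so only the mean it was set against changed.

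Summed by complex, the 7 complex I genes took 37.6% ± 1.73 (SD, n = 9) of coding counts in epithelium and 41.8% ± 0.514 (SD, n = 5) in stroma, without overlap (exact permutation p = 0.000999, the smallest possible). In the 5 mice with both layers the difference was -3.19 percentage points. Complex IV took 38.2% ± 2.63 (SD, n = 9) and 34.98% ± 0.476 (SD, n = 5) (exact permutation p = 0.019). Complex V took 10.2% ± 1.06 (SD, n = 9) and 8.56% ± 0.834 (SD, n = 5) (exact permutation p = 0.014). Both overlapped between layers and neither held throughout: complex IV differed by 1.54 points with p = 0.151 in the 5 mice with both layers, and complex V by 0.97 points with p = 0.146 once mt-Atp8 and mt-Nd4l were left out (exact permutation tests). mt-Cytb, the one complex III gene, took 14.1% ± 1.11 (SD, n = 9) and 14.6% ± 0.507 (SD, n = 5) (exact permutation p = 0.386), and its difference grew to -1.17 points with p = 0.004 by the same exact test when the copies were added to the coding total. With the copies added, complexes I, IV and V differed by -6.12, 3.02 and 4.27 points, and each kept its direction and call.

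The differences in level were also tested gene by gene across all genes, with edgeR's quasi-likelihood test and Benjamini-Hochberg adjustment. Of 16791 genes tested, 56.2% differed between layers, 30.1% being lower in epithelium and 26.1% higher. Of the 37 mt- genes, 23 passed the filter on low counts. Of these, 16 had at least 10 counts in every sample (the coding genes, both rRNAs and mt-Tg), and 14 of the 16 were lower in epithelium and 0 higher. The other 7 were tRNAs with fewer counts in some or all epithelial samples, which passed the filter wholly or partly through stroma, so their calls are not counted here. The members are not independent of one another, since they come from shared precursors. All 13 coding genes were lower, by log2 fold changes from -1.76 for mt-Atp8 to -3.08 for mt-Nd2, with a median of -2.35, against a median of -0.05 over all genes tested. In the 5 mice with both layers the median was -3.50.

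Normalised counts (per 1000000 counts, with library sizes scaled by TMM) show the size of this difference. mt-Nd2 had 93.3, 85.3, 100.5, 404.8 and 359.2 in aged epithelium (O1, O2, O3, OF5 and OM8) and 90.8, 164.3, 333 and 155.8 in young epithelium (Y1, Y3, YF5 and YM4). In stroma it had 2413, 1260 and 989.5 in O1, O2 and O3 and 2351 and 1384 in Y1 and Y3. The lowest stromal sample exceeded the highest epithelial one, and the log2 fold change was -3.08 ± 0.40 (SE, edgeR adjusted p = 1.51e-06). mt-Co1, the most counted mRNA, had 529.4 to 3920 in epithelium, with a median of 824.0, and 4932 to 10643 in stroma, with a median of 6304. Its log2 fold change was -2.23 ± 0.49 (SE, edgeR adjusted p = 0.000611). mt-Atp8, whose difference was smallest, had a log2 fold change of -1.76 ± 0.40 (SE, edgeR adjusted p = 0.00125).

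The rRNAs differed less than the mRNAs. mt-Rnr1 had normalised counts of 8201, 7661, 7398, 62609 and 47922 in aged epithelium (O1, O2, O3, OF5 and OM8) and 7110, 10281, 28205 and 16698 in young epithelium (Y1, Y3, YF5 and YM4). Stroma had 58774, 32555 and 25832 in O1, O2 and O3 and 69820 and 39759 in Y1 and Y3. OF5, OM8 and YF5 epithelium reached the stromal range. The log2 fold changes were -1.06 ± 0.58 for mt-Rnr1 and -1.27 ± 0.58 for mt-Rnr2 (SE), and neither passed (edgeR adjusted p = 0.129 and 0.0695). In the 5 mice with both layers both passed, at -2.47 and -2.58 (edgeR adjusted p = 4.09e-05 and 1.9e-05), with the same calls when the mouse was a block. Both also passed without OF5, at -1.44 and -1.67 (edgeR adjusted p = 0.0317 and 0.0137), and mt-Rnr2 without OM8, at -1.46 (edgeR adjusted p = 0.0385).

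The tRNAs were a very small class, at 0.0105% to 0.0935% of mt- counts, or 35 to 3138 counts per sample. mt-Tg, the glycine tRNA, held 72.0% of all tRNA counts, and the 6 with most counts (mt-Tg, mt-Tc, mt-Tp, mt-Tm, mt-Te and mt-Th) held 92.8%. The other 16 had 1 to 159 counts over all samples together, and 19 of 22 were at 0 in at least 1 sample. Mature tRNAs are short and carry no poly(A) tail, and whether these counts came from mature tRNAs was not tested. On mtDNA mt-Tg lies between mt-Co3 and mt-Nd3, which both have nuclear copies. Whether an unannotated nuclear copy shares the reads of mt-Tg was not tested either. The 3 most counted tRNAs are shown from the annotation (GENCODE M21, GRCm38), with the anticodon in capitals as found by a search for the stem and loop around it.
mt-Tg (glycine, MT:9391-9458, plus strand): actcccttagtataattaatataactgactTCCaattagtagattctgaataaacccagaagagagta
mt-Tc (cysteine, MT:5192-5257, minus strand): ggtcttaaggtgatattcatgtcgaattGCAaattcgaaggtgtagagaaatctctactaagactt
mt-Tp (proline, MT:15356-15422, minus strand): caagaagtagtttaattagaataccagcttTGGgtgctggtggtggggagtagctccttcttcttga

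As a share of mt- counts the tRNAs did not pass, at 0.0441% ± 0.0276 (SD, n = 9) in epithelium and 0.0663% ± 0.0162 (SD, n = 5) in stroma (exact permutation p = 0.131). In level, mt-Tg had normalised counts of 15.03, 7.48, 15.6, 15.9 and 3.54 in aged epithelium (O1, O2, O3, OF5 and OM8) and 5.17, 6.12, 37.1 and 9.001 in young epithelium (Y1, Y3, YF5 and YM4). It had 63.0, 55.4 and 40.01 in the stroma of O1, O2 and O3 and 89.9 and 98.4 in that of Y1 and Y3, all above the epithelial values (log2 fold change -2.52 ± 0.43 (SE), edgeR adjusted p = 0.000126). mt-Tp, mt-Tm, mt-Te and mt-Th had log2 fold changes from -2.62 to -2.04, given without a test since each had under 10 counts in some epithelial samples. mt-Ts1 had -0.33, on 109 counts in all samples, and is given without a test for the same reason.

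mt-Tc, the cysteine tRNA, reached 10 counts in 1 of 9 epithelial samples and passed the filter on low counts through stroma, so its values are a description without a test. Its raw counts were 7, 12, 9, 0 and 1 in aged epithelium (O1, O2, O3, OF5 and OM8) and 5, 3, 1 and 0 in young epithelium (Y1, Y3, YF5 and YM4). They were 311, 123 and 116 in the stroma of O1, O2 and O3 and 174 and 77 in that of Y1 and Y3. All stromal counts lay above all epithelial counts. mt-Tn, its neighbour, had at most 4 counts in an epithelial sample and 12 to 40 in a stromal one. mt-Tc lies in a cluster with mt-Ta, mt-Tn and mt-Ty, all encoded on the light strand between mt-Nd2 and mt-Co1. The cluster of 4 had 54 of 2312 tRNA counts in epithelium (2.34%) and 1059 of 10693 in stroma (9.90%). By sample its share was 0% to 5% in epithelium and 4.75% to 19.3% in stroma, so the layers overlapped. O1 stroma was highest, and without it the stromal share was 7.92%. The light-strand tRNAs as a class had 14.01% and 18.65%, or 15.3% in stroma without O1, and their shares overlapped widely by sample, at 3.13% to 58.2% in epithelium and 11.3% to 34.7% in stroma. mt-Ty had 0 counts in all epithelial samples, which allows up to 0.13% of the epithelial tRNA counts, and 81 in stroma, or 0.758%. These cluster sums were formed after the values had been seen and were not tested. As for mt-Nd6, counts of light-strand tRNAs may include reads from the opposite strand.

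**Figure D5:**
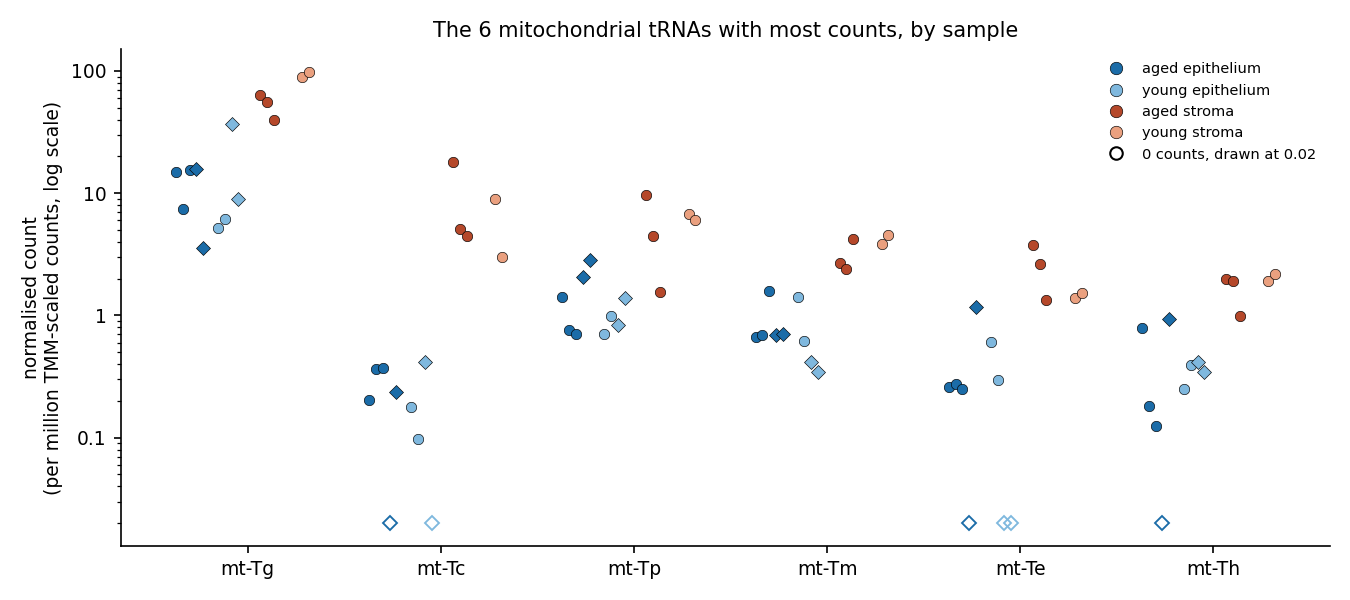
Normalised counts (y axis, log scale) of the 6 tRNAs with most counts. Points are samples, diamonds are OF5, OM8, YF5 and YM4, and open symbols are samples with 0 counts. All stromal points of mt-Tg and mt-Tc lie above all epithelial points, with the wider gap for mt-Tc.

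With age, no mt- gene passed in either layer. In epithelium, 18 mt- genes were tested with the 2 forms of mouse code (O1, O2, O3, Y1 and Y3 against OF5, OM8, YF5 and YM4) as a term, because these forms also divide the libraries by depth and rRNA-like share. edgeR called 0 of 18, with 0 at an unadjusted p under 0.05, and DESeq2 called 0. The background was 0.0126% of 15859 genes called. All 18 fold changes were above 0, from 0.02 to 0.53 on the log2 scale, with a median of 0.23. In the 3 aged and 2 young mice with plain codes alone, 11 of 13 coding genes had a fold change below 0, with a median of -0.23 and 0 called. In stroma edgeR called 0 of 28 (0% of 21323 genes called) and DESeq2 0, with 1 at an unadjusted p under 0.05. A test of whether the age difference depended on layer called 0 of 28 by edgeR (0% of 22771 genes called) and 0 by DESeq2, again with 1 at an unadjusted p under 0.05.

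That gene was mt-Tg in both. Per 1000 coding mt- counts it had 6.49, 3.32, 7.18, 1.29 and 0.33 in aged epithelium (O1, O2, O3, OF5 and OM8) and 2.59, 1.89, 4.28 and 1.94 in young epithelium (Y1, Y3, YF5 and YM4). In stroma it had 1.58, 2.76 and 2.24 in O1, O2 and O3 and 2.37 and 4.23 in Y1 and Y3. Among the 5 mice with both layers, aged epithelium was above young epithelium, whereas OF5 and OM8 were the lowest of all. Its age by layer term was 2.01 ± 0.43 on the log2 scale (SE, edgeR unadjusted p = 0.000649, adjusted p = 0.547). The adjusted p ranged from 0.00608 to 1 over the alternatives and passed only without a filter on low counts.

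Composition did not pass with age in epithelium either. rRNA took 90.9% ± 1.2 (SD, n = 5) of mt- counts in aged and 89.4% ± 0.696 (SD, n = 4) in young epithelium (exact permutation within code form, p = 0.1, smallest possible 0.0333). Complex I took 37.3% ± 2.18 (SD, n = 5) and 37.9% ± 1.15 (SD, n = 4) of coding counts (p = 0.3 by the same exact test). Coding mt- counts per 100 nuclear protein-coding counts were 1.74 ± 1.44 (SD, n = 5) and 1.21 ± 0.609 (SD, n = 4) (p = 0.233 by the same exact test). The medians had the other order, at 0.729 and 1.11, and the difference of the log2 means (0.24) turned below 0 without OF5 (-0.11), OM8 (-0.10) or Y1 (-0.07). In stroma, 3 aged and 2 young samples cannot give an exact permutation p below 0.2.

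Nuclear genes that act on mitochondrial RNA moved less uniformly than the mt- genes. Of 55 such factors tested, 18 were lower in epithelium, 3 were higher and 34 did not pass, with a median log2 fold change of -0.22. These are 32.7% lower and 5.45% higher, against 30.1% and 26.1% of all genes tested, so the share that was lower lay near the background. The 21 called fell to 11 when each mouse entered as a block, over the 5 paired mice, and to 11 with a filter of 10 counts in every sample. Among 15 genes of mtDNA transcription and the nucleoid, 9 were lower and 0 higher, or 60% against 30.1% of all genes for the lower ones. These included Tfam, which packages mtDNA and activates its transcription (-1.03, edgeR adjusted p = 0.00108), and Polg, the mtDNA polymerase (-0.56, edgeR adjusted p = 0.00778). Polrmt, the mitochondrial RNA polymerase, did not pass (-0.51, edgeR adjusted p = 0.0821).

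Of 26 genes of RNA processing and modification, 5 were lower and 1 higher, both shares below those of all genes. Fastk, a mitochondrial RNA-binding protein needed for mt-Nd6 mRNA, had the largest decrease (-2.46 ± 0.21 (SE), edgeR adjusted p = 5.13e-09). Its normalised count was 8.68 ± 2.83 (SD, n = 9) in epithelium and 46.0 ± 12.7 (SD, n = 5) in stroma. Grsf1, a protein of mitochondrial RNA granules, was also lower (-1.01 ± 0.19 (SE), edgeR adjusted p = 0.00015). Nsun2, an RNA methyltransferase that also acts on cytosolic tRNAs, was higher (1.42 ± 0.20 (SE), edgeR adjusted p = 4.46e-06). The tRNA-end nucleases Elac2 and Prorp had -0.02 and -0.27 and did not pass (edgeR adjusted p = 0.93 and 0.67).

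Among 7 genes of RNA stability and decay, 1 was lower and 1 higher (14.3% each, against 30.1% and 26.1% of all genes tested). Pde12, which removes poly(A) tails from mitochondrial RNAs, was higher in epithelium (2.50, edgeR adjusted p = 0.000152), and Angel2 was lower (-0.57, edgeR adjusted p = 0.0365). Lrpprc, which stabilises mitochondrial mRNAs, had -0.23 and did not pass (edgeR adjusted p = 0.362). Of 7 regulators of mitochondrial content, 3 were lower and 1 higher (42.9% and 14.3%, against the same background). Lists of 7 genes are too small to read either set of shares as a result. Ppargc1a, a coactivator of mitochondrial biogenesis, was lower (-4.12, edgeR adjusted p = 6.64e-09), as were Ppargc1b (-2.08) and the muscle gene Perm1 (-1.32). Pprc1 was higher (0.67, edgeR adjusted p = 0.00522).

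The nuclear subunits of oxidative phosphorylation were lower in epithelium almost throughout. Of 81 tested, 75 were lower (92.6%, against 30.1% of all genes), 2 higher (2.47%, against 26.1%) and 4 did not pass, with a median log2 fold change of -1.36, smaller in size than the median of -2.35 of the coding mt- genes. The muscle forms Cox6a2 and Cox8b had the largest decreases (-7.37 and -7.23). Cox6a1, the form of the same subunit outside muscle, was higher (0.94, edgeR adjusted p = 0.000626). Ndufa4l2, which was counted among the subunits by its symbol alone, was also higher (4.89, edgeR adjusted p = 4.43e-09). With age, edgeR called 0 of 79 subunits in epithelium (0 at an unadjusted p under 0.05) and 0 of 81 in stroma (0 at an unadjusted p under 0.05).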

How the data were processed

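RNA had been taken from peeled epithelium and stroma, enriched on oligo-d(T) beads and sequenced. The authors aligned reads to GRCm38.p6 with Rsubread, counted them per gene with featureCounts and deposited raw counts as whole numbers. How strand and multiply matching reads were handled is not given in the sources used here. Groups follow the sample labels. Members and gene lists were chosen with earlier results of these data known.

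Layers were compared with edgeR 4.0.16 (TMM, filterByExpr with a minimum count of 10, quasi-likelihood test, adjusted p under 0.05) without a covariate, after the study's design, and with DESeq2 1.42.0 as an alternative. Ratios used a pseudocount of 0.5 and two-sided exact permutation tests, which treat both layers of a mouse as separate. The scripts were tested on simulated data. The named genes were all coding and rRNA genes, the 6 tRNAs with most counts, and per list the called genes with the largest fold changes at an average log2 CPM of at least 3. Tfam, Polrmt, Elac2, Prorp, Pde12, Lrpprc, Ppargc1a, Ppargc1b, mt-Tn, mt-Ta, mt-Ty and mt-Ts1 were added after their values were seen. The layers of 5 mice are paired by animal, and their deviations from group means correlated across genes at 0.0519 to 0.122. No samples agreed within counting noise. Without a mouse block or sign-flip test, p-values between layers and of age by layer measure the spread between samples, with 5 mice in both layers. Those of age within a layer measure the spread between these mice.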

Additional observations from a re-analysis of the deposited data

Results flagged for a closer look

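Of 44 checks for a sample far from the rest of its group (22 measures in aged and in young epithelium), 2 gave a flag, and chance gives about 1 in 20. In aged epithelium, OM8 had the highest log2 ratio of mt-Nd4 to the mean coding gene, 0.79, against 0.53 to 0.58 in the other 4 samples. In young epithelium, YF5 had the highest log2 ratio of mt-Nd4l, -1.67, against -2.06 to -2.004 in the other 3. Both samples still lay on the epithelial side of all stromal samples for these genes.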

How the results depend on the processing

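Results on the mt- genes kept their direction between layers in every alternative run, except the small log ratios of mt-Co1 (-0.0028 in the 5 mice with both layers, with or without the mouse as a replicate block), mt-Nd5 (-0.029 with copies added), mt-Ts1 (up to 0.24 in level, never called) and mt-Cytb (0.017 among 5 genes without copies). The count of mt- genes called between layers, tRNAs that passed the filter through stroma included, was 20 and stayed between 14 (10 counts in every sample) and 25 (no filter), and was 24 with the replicate block. The median of the coding genes was -3.50 in the 5 mice with both layers. In those mice the mt-Rnr2 to mt-Rnr1 difference was -0.13 (exact p = 0.0556) and that of complex IV 1.54 (p = 0.151). With the mouse as a replicate block, 5 pairs cannot give an exact p below 0.0625, so no ratio could pass: differences were -18.2 points for mt- counts, -3.54 (log2) for coding counts, 8.27 for rRNA, -0.13 for mt-Rnr2 to mt-Rnr1, -3.19, 1.54 and 1.66 for complexes I, IV and V, and 0 genes in the balance test against 7. Complex V differed by 0.94 in aged mice only and 0.97 without mt-Atp8 and mt-Nd4l, and neither passed. Adding copies moved complex III to -1.17, which passed. Among the 5 genes without copies, 3 passed the balance test. Factors called fell from 21 to 11 both with 10 counts in every sample and with the replicate block. Without a filter, 1 mt- gene (mt-Tg) passed the age by layer test. Without the stratum, rRNA differed with age in epithelium by 1.49 (exact p = 0.0476). Leaving out 1 mouse gave 2.68 to 3.62 for complex IV (lost without O1, exact permutation p = 0.0606), 1.30 to 1.94 for complex V (lost without Y3, exact p = 0.0525) and -0.11 to 0.53 for the age difference in coding counts, reversed without OF5, OM8 or Y1. Causes were not tested. tRNA results are limited by depth, with 35 counts in the lowest sample.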
